A study of Mus musculus with 12 samples.

Results

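Inhibitory receptors other than PD-1 were followed in donor T cells that had infiltrated the liver after allogeneic hematopoietic cell transplantation (HCT). The 9 genes were taken by symbol, namely Ctla4, Lag3, Havcr2, Tigit, Btla, Cd160, Cd200, Cd200r1, and Cd5, and each was found among the 25078 genes of the count table. All 9 passed the filter on low counts in both T cell subsets. The RNA-Seq comprised 12 libraries, 2 for each of 3 donor genotypes in CD4+ and in CD8+ T cells. All libraries came from lethally irradiated WT BALB/c recipients of T cell-depleted bone marrow from WT C57BL/6 mice plus C57BL/6 T cells, and donor T cells (H-2Kb+TCRβ+) were sorted from the liver on day 6. In WT libraries the grafted T cells were from unmodified C57BL/6 mice. In STAT3ko libraries they were from mice with floxed Stat3 alleles and Cre driven by the CD4 promoter, which acts in the precursors of both subsets. In STAT3ko PD-1ko libraries they were from the same cross on a germline PD-1-/- background. No library lacked PD-1 alone, so that the loss of PD-1 could be compared only among STAT3ko cells. Each library held liver lymphocytes of 3 recipients, so that replicates are pools and p-values measure the spread between pools. The replicate number may mark a batch shared by the genotypes, and where a fit with this number as a block (the replicate block) changed a call on the 9 genes, its value is given beside it. The libraries held 21676125 to 24551477 counts on genes.

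Inhibitory receptors are surface proteins that lower the response of a T cell to antigen, and most of them rise after activation and stay high when antigen persists. CTLA-4 takes the costimulatory ligands CD80 and CD86 away from CD28. LAG-3 binds MHC class II, TIM-3 (Havcr2) binds galectin-9 and other ligands, and TIGIT competes with the activating receptor CD226 for CD155. BTLA and CD160 both bind HVEM, the product of Tnfrsf14. CD200 is the ligand of CD200R1, and CD5 tunes signalling by the T cell receptor. Several of these tails recruit the phosphatases SHP-1 and SHP-2. The measurements are of transcripts and say nothing on surface protein.

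The targets of the knockouts were read first. Stat3 stood at 369 and 467 CPM (library-normalised read counts, scaled by TMM) in the WT CD4+ libraries. It stood at 140 and 164 in STAT3ko and at 157 and 219 in STAT3ko PD-1ko CD4+ libraries. The same groups of CD8+ libraries had 397 and 384, 149 and 136, and 154 and 235 CPM of Stat3. Every library labelled STAT3ko was thus below every WT library, with a remainder of Stat3 reads. Between STAT3ko and WT, the log2 fold change of Stat3 was -1.46 ± 0.22 (SE, n = 2 against 2 pools, adjusted p = 0.055, edgeR) in CD4+ and -1.46 ± 0.20 (adjusted p = 0.108) in CD8+ T cells, so that it missed the threshold of 0.05. Stat3 passed in CD4+ T cells with the replicate block (adjusted p = 0.00197, edgeR). Pdcd1, which encodes PD-1, stood at 247 and 235 CPM in WT, 261 and 323 in STAT3ko, and 55.1 and 26.0 in STAT3ko PD-1ko CD4+ libraries. In CD8+ libraries Pdcd1 stood at 376 and 307, 424 and 454, and 93.6 and 65.6 CPM. Reads from a deleted allele are not told apart from reads of an intact one in these gene totals.

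The labelled cell types were checked against their markers. Cd4 stood at 1844 and 1881 CPM in WT, 1695 and 1887 in STAT3ko, and 1323 and 1242 in STAT3ko PD-1ko CD4+ libraries. In the CD8+ libraries Cd4 was at most 2.73 CPM. Cd8a stood at 1191 and 1339, 1023 and 1184, and 595 and 589 CPM in these groups of CD8+ libraries and at most 5.64 CPM in CD4+ libraries. Hepatocyte genes summed to 1.41 to 5.06 CPM over all 12 libraries. Of the B cell genes, Ms4a1 had 0 counts in all libraries, and Cd79b was the most abundant, at up to 14.5 CPM in CD8+ libraries. The 7 myeloid genes summed to 18.2 to 68.6 CPM in CD4+ and 25.5 to 101 CPM in CD8+ libraries, lowest in STAT3ko PD-1ko of each subset. Itgam, which activated T cells also express, was the most abundant of them in all WT and STAT3ko libraries, whereas Lyz2 was at most 1.198 CPM. Natural killer cell genes summed to 10.25 to 18.7 CPM in CD4+ and 11.2 to 56.3 CPM in CD8+ libraries, and endothelial genes to 0.141 to 3.19 CPM over all.

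Per kilobase of exon, Ctla4 and Tigit were the most abundant of the 9 genes in WT CD4+ T cells. Ctla4 averaged 464 ± 295 CPM per kilobase (SD, n = 2) and Tigit 412 ± 4.38, and the Ctla4 libraries lay on either side of the Tigit libraries. Cd5 followed at 184 ± 4.12, then Lag3 at 103 ± 15.9, Havcr2 at 92.1 ± 14.8, and Btla at 65.9 ± 8.34 CPM per kilobase. Lag3 and Havcr2 overlapped, and Btla was below both. Cd200 at 12.9 ± 0.463, Cd160 at 11.7 ± 1.71, and Cd200r1 at 10.1 ± 2.80 CPM per kilobase were lowest. Cd160 libraries (12.9 and 10.4) overlapped those of both neighbours. In WT CD8+ T cells, Ctla4 (364 ± 280) and Tigit (307 ± 48.7) again led and again overlapped. They were followed by Lag3 (155 ± 6.77), Havcr2 (138 ± 0.290), Cd5 (87.7 ± 13.3), Cd160 (60.1 ± 3.59), Btla (32.1 ± 4.48), Cd200 (6.29 ± 0.0849), and Cd200r1 (2.57 ± 0.607 CPM per kilobase), and no other neighbours overlapped.

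**Figure D1:**
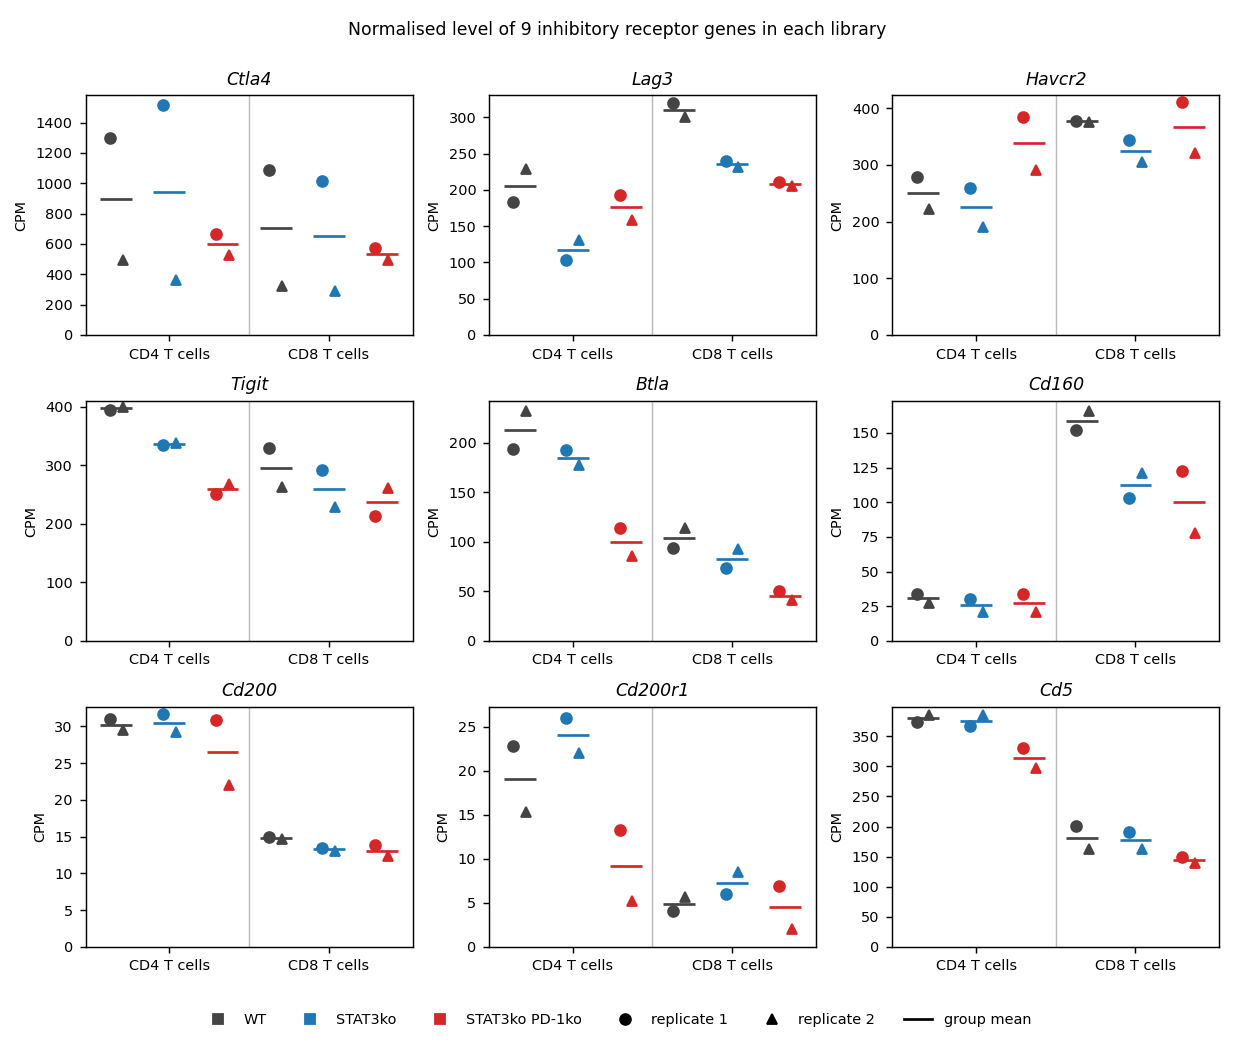
Level of each gene in CPM (vertical axes, starting at 0) in each of the 12 libraries, coloured by genotype, with circles for replicate 1, triangles for replicate 2, and a line at the mean of the 2 libraries. Btla in STAT3ko PD-1ko libraries was below both other genotypes in each subset, and Cd160 was higher in every CD8+ than in every CD4+ library.

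Among the 9 genes, Btla was the one that fell in both subsets of STAT3ko PD-1ko. In CD4+ T cells it stood at 194 and 232 CPM in WT, 192 and 177 in STAT3ko, and 114 and 85.3 in STAT3ko PD-1ko libraries. Among CD8+ libraries it stood at 93.7 and 114, 73.6 and 92.4, and 49.99 and 41.3 CPM. Both STAT3ko PD-1ko libraries were thus below every library of the other genotypes in each subset. The STAT3ko libraries were below those of WT by less, a log2 fold change of -0.20 ± 0.18 in CD4+ and -0.33 ± 0.17 in CD8+ cells that did not pass (adjusted p = 0.798 and 0.568, edgeR). Compared with WT, Btla fell by 1.08 ± 0.18 on the log2 scale in STAT3ko PD-1ko CD4+ T cells (2.11-fold, adjusted p = 0.0122, by the quasi-likelihood test of edgeR, adjusted as Benjamini and Hochberg). Btla of CD8+ T cells fell by 1.18 ± 0.18 on the same scale (2.26-fold, adjusted p = 0.00859, edgeR). Compared with STAT3ko, it fell by 0.88 ± 0.18 in CD4+ (adjusted p = 0.0289, edgeR) and by 0.85 ± 0.18 in CD8+ T cells (adjusted p = 0.022, edgeR). These comparisons share the STAT3ko PD-1ko libraries. Within replicate 1 the difference from WT was -0.77 in CD4+ and -0.91 in CD8+, and within replicate 2 it was -1.45 and -1.47. In a bulk library, fewer cells with a transcript and less of it per cell cannot be told apart.

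The calls on Btla rested on few pools. In CD4+ T cells, the adjusted p against WT (edgeR) rose to 0.0611 and 0.11 without either STAT3ko PD-1ko library and to 0.0557 without the second WT library. In CD8+ T cells it rose to 0.0753 without the second STAT3ko PD-1ko library and passed in the other 5 fits that left out a library. Against STAT3ko the call was lost without either STAT3ko PD-1ko library in CD4+ (adjusted p = 0.0691 and 0.218, edgeR). For CD8+ T cells it was lost without the second STAT3ko library or either STAT3ko PD-1ko library (adjusted p = 0.101, 0.0522, and 0.142, edgeR). In these fits the fold change from WT kept its sign, between -1.29 and -0.90 in CD4+ and between -1.33 and -1.04 in CD8+ T cells.

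S1pr1 and Tcf7, markers of naive T cells, moved with Btla in CD4+ and S1pr1 in CD8+ T cells. S1pr1, which encodes a receptor for exit from lymphoid tissue, stood at 520 and 397 CPM in WT, 518 and 424 in STAT3ko, and 280 and 223 in STAT3ko PD-1ko CD4+ libraries. Its level was 359 and 241, 424 and 325, and 184 and 143 CPM in these groups of CD8+ libraries. In STAT3ko PD-1ko against WT, S1pr1 fell by 0.84 in CD4+ and by 0.87 in CD8+ T cells on the log2 scale (adjusted p = 0.0294 and 0.0383, edgeR). Tcf7, which encodes the transcription factor TCF-1, fell by 2.89 in CD4+ T cells (adjusted p = 0.00208, edgeR), and its log2 difference of -0.70 in CD8+ T cells did not pass (adjusted p = 0.128). Lef1 and Ccr7 passed in neither subset, with log2 fold changes of -0.37 and -0.65 in CD4+ and -0.07 and 1.82 in CD8+ T cells. Of 3 follicular helper markers, Cxcr5 and Bcl6 fell by 3.16 and 2.20 on the log2 scale in CD4+ T cells against WT (adjusted p = 0.0025 and 0.00839, edgeR). Il21, the most abundant, had a log2 fold change of 0.21 (adjusted p = 0.766, edgeR). Cxcr5 stood at 9.23 and 12.3 CPM in WT, 2.92 and 2.85 in STAT3ko, and 1.26 and 1.11 in STAT3ko PD-1ko CD4+ libraries. Bcl6 stood at 10.6 and 18.7, 7.21 and 8.85, and 2.99 and 3.30 CPM in these groups. In STAT3ko against WT CD4+ T cells, 1 of the 3 markers was already called lower, beside 0.334% of all genes called. In STAT3ko PD-1ko against STAT3ko, 2 were called lower, beside 11.1%. Bcl6 of CD8+ T cells fell by 2.16 against WT (adjusted p = 0.0144, edgeR), and Cxcr5 and Il21 did not pass (log2 -1.11 and 1.03, adjusted p = 0.122 and 0.0814). The CD8+ libraries had 3.96 and 4.79 CPM of Bcl6 in WT, 1.64 and 1.92 in STAT3ko, and 0.619 and 1.31 in STAT3ko PD-1ko. Of 4 cycling genes, 3 rose in CD4+ and 2 in CD8+ T cells. Mki67, a proliferation marker and the most abundant of them, was higher than in WT by 0.82 (adjusted p = 0.00875) in CD4+ and by 0.56 (adjusted p = 0.0136, edgeR) in CD8+ T cells. In CD8+ libraries it stood at 2204 and 1902 CPM in WT, 3048 and 2789 in STAT3ko, and 3049 and 2958 in STAT3ko PD-1ko. Between STAT3ko PD-1ko and STAT3ko, 1 of the 4 cycling genes rose in CD4+ (11.1% of all genes called) and 0 passed in CD8+ T cells (16.8%). Cd79b, of the B cell list, fell by 1.18 in CD8+ T cells (adjusted p = 0.0149, edgeR), while Ms4a1 had 0 counts throughout. Of 5 myeloid genes tested, Itgam fell by 2.41 in CD4+ and fell by 3.21 in CD8+ T cells (adjusted p = 0.00398 and 0.000901, edgeR), and Cd68 fell by 0.71 in CD8+ T cells (adjusted p = 0.0154, edgeR). Of the markers of the T cell gate, Cd4 fell by 0.52 in CD4+ T cells (adjusted p = 0.0375, edgeR), and Cd8a, Cd8b1, and Cd3d fell by 1.09, 0.87, and 0.67 in CD8+ T cells (adjusted p = 0.00414, 0.00531, and 0.0169, edgeR). Of 3 regulatory T cell markers, Foxp3 fell by 2.91 in CD4+ and by 1.19 in CD8+ T cells (adjusted p = 0.00395 and 0.0458, edgeR). Ikzf2 fell by 1.11 in CD4+ T cells (adjusted p = 0.0185, edgeR) and had a log2 fold change of 0.32 in CD8+ T cells that did not pass. Il2ra passed in neither subset without a block (log2 0.18 and 0.42). The part of these shifts in the Btla result was not tested.

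Btla lies on chromosome 16 (mm10, 45224337 to 45252895, plus strand), and Tigit, Cd200r1, and Cd200 lie on the same chromosome within 1760 kb. Between Btla and Cd200 the gap is 129 kb. The windows from 250 bases before to 50 after the start sites of Btla and Tigit, the genes of this stretch that passed the threshold between genotypes, are shown with that of the second start of Cd160, the one that held the letters of STAT factors (RefSeq, GRCm38.p6, 5′ to 3′ on the strand of the gene). Capitals mark matches to searched letters.
Btla, chr16:45224087-45224386, plus strand: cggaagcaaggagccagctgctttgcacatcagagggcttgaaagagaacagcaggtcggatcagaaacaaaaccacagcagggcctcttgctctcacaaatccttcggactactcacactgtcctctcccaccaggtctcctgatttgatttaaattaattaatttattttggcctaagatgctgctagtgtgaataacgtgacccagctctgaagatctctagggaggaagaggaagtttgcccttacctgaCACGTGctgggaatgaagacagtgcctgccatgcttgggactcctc
Tigit, chr16:43664135-43664434, minus strand: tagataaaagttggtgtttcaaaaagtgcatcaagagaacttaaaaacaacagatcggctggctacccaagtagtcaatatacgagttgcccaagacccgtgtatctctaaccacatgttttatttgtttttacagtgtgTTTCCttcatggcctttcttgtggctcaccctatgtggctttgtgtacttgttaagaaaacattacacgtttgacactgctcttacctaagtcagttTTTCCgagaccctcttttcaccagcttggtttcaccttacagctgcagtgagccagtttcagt
Cd160, chr3:96814472-96814771, minus strand: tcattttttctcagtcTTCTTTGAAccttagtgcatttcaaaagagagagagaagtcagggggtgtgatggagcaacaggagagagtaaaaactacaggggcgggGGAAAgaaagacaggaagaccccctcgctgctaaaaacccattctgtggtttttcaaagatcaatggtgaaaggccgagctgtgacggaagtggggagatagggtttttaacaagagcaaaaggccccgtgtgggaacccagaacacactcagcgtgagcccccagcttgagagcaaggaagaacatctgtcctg
The letters searched on both strands were TTCNNNGAA for STAT factors, GGAAA for NFAT (TTTCC on the other strand), TGANTCA for AP-1, and CACGTG for the MYC family. TTCNNNGAA and GGAAA can share letters, and in these windows no matches overlapped. The window of Btla held CACGTG, starting at position 4 from its start site, letters found in 7.15% of the 32851 promoter windows of RefSeq. Tigit held TTTCC at -110 and at -13, and GGAAA on either strand was in 61.3% of windows. The STAT letters were in 8.3% of windows and, among the 8 windows found for 7 of the 9 genes, only in that of the second start of Cd160, at -234. Havcr2 had TGANTCA at -200, letters found in 7.81% of windows. A match is a run of letters and not a measured binding site.

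Cd160, the other receptor of HVEM (chromosome 3, 96798763 to 96829351, minus strand), was at 20.5 to 34.0 CPM in the CD4+ libraries. In CD8+ libraries it stood at 152 and 166 CPM in WT, 103 and 121 in STAT3ko, and 122 and 78.0 in STAT3ko PD-1ko. Both knockout groups were below WT in CD8+ T cells without overlap, but neither difference passed. The log2 fold change was -0.50 ± 0.21 in STAT3ko (adjusted p = 0.441, edgeR) and -0.66 ± 0.21 in STAT3ko PD-1ko (95% interval -1.15 to -0.16, adjusted p = 0.0721, edgeR). The latter passed with DESeq2 (adjusted p = 0.0172), with all genes of at least 1 count (adjusted p = 0.0276, edgeR), and without the first STAT3ko PD-1ko library (adjusted p = 0.0411, edgeR). Natural killer cells also carry CD160, and Klrb1c, the one gene of their list that was tested, fell by 1.62 on the log2 scale in the same comparison (adjusted p = 0.028, edgeR). Of the 4 genes of that list, 2 or 3 had 0 counts in each library, and Klrb1c made up nearly all of the sum.

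Tigit (chromosome 16, 43648861 to 43664184, minus strand) fell in STAT3ko PD-1ko CD4+ T cells. It stood at 394 and 400 CPM in WT, 334 and 338 in STAT3ko, and 252 and 268 in STAT3ko PD-1ko CD4+ libraries, so that the 3 genotypes did not overlap. Against WT the log2 fold change in STAT3ko PD-1ko was -0.59 ± 0.13 (1.51-fold lower, adjusted p = 0.028, edgeR). The step from STAT3ko to STAT3ko PD-1ko was -0.35 ± 0.13 (adjusted p = 0.124, and 0.0413 with the replicate block, edgeR) and that from WT to STAT3ko was -0.24 ± 0.13 (adjusted p = 0.615, edgeR). Within replicates 1 and 2 the difference of STAT3ko PD-1ko from WT was -0.65 and -0.58. The call was lost without any 1 of these 4 libraries, with adjusted p from 0.0948 to 0.154 (edgeR). Among CD8+ libraries Tigit stood at 329 and 263, 292 and 228, and 214 and 261 CPM, a difference of -0.31 ± 0.18 from WT that did not pass (adjusted p = 0.268, edgeR).

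Markers of regulatory T cells, which carry TIGIT and CTLA-4, were read beside Tigit. Foxp3 was at 20.96 and 30.7 CPM in WT, 16.3 and 25.1 in STAT3ko, and 3.38 and 3.42 in STAT3ko PD-1ko CD4+ libraries. It fell by 2.91 on the log2 scale against WT (adjusted p = 0.00395, edgeR), and Ikzf2 fell by 1.11 (adjusted p = 0.0185, edgeR). Il2ra, the most abundant of these 3 genes, was at 270 and 292 CPM in WT and at 350 and 277 in STAT3ko PD-1ko CD4+ libraries. Cd4, a marker of the gate, fell by 0.52 on the log2 scale in the same comparison (adjusted p = 0.0375, edgeR). The part of these markers in the Tigit result was not tested.

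Lag3 (chromosome 6, 124904359 to 124911705, minus strand) was lowest in STAT3ko among CD4+ T cells but lowest in STAT3ko PD-1ko among CD8+ T cells. In CD4+ T cells it stood at 183 and 228 CPM in WT, 104 and 131 in STAT3ko, and 193 and 158 in STAT3ko PD-1ko libraries. The CD8+ libraries had 319 and 300.2, 240 and 231, and 211 and 205 CPM of Lag3, with no overlap between genotypes. Against WT, Lag3 fell by 0.56 ± 0.10 on the log2 scale in STAT3ko PD-1ko CD8+ T cells (1.48-fold, adjusted p = 0.0138, edgeR), by 0.60 within replicate 1 and by 0.55 within replicate 2. This call was lost without any 1 of the 4 libraries, with adjusted p from 0.0525 to 0.0826 (edgeR). In the same comparison the markers of the gate also moved, as Cd8a fell by 1.09, Cd8b1 by 0.87, and Cd3d by 0.67 on the log2 scale. Foxp3, a marker of regulatory T cells, fell by 1.19 (adjusted p = 0.0458, edgeR). It stood at 23.8 and 13.7 CPM in WT, 18.3 and 28.8 in STAT3ko, and 7.29 and 8.94 in STAT3ko PD-1ko CD8+ libraries. The WT CD4+ libraries had 20.96 and 30.7 CPM of Foxp3, so that its reads were not particular to CD4+ cells. Ikzf2 and Il2ra of the same list had log2 fold changes of 0.32 and 0.42 and did not pass without a block. The part of all these markers in the Lag3 result was not tested.

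In STAT3ko against WT the log2 fold change of Lag3 was -0.81 ± 0.20 in CD4+ (95% interval -1.26 to -0.35) and -0.40 ± 0.10 in CD8+ T cells (-0.63 to -0.16). Within replicates it was -0.82 and -0.80 in CD4+, and -0.41 and -0.38 in CD8+ T cells. Neither passed with edgeR (adjusted p = 0.19 and 0.277), and both passed with DESeq2 (adjusted p = 0.0145 and 0.0301). In CD4+ T cells the libraries without PD-1 were above STAT3ko by 0.60 ± 0.20 (95% interval 0.14 to 1.06, adjusted p = 0.0921, edgeR), which passed with DESeq2 (adjusted p = 0.0425) and with the replicate block (adjusted p = 0.0323, edgeR). In CD8+ T cells they were 0.17 ± 0.10 below STAT3ko (adjusted p = 0.284, edgeR). The interaction of subset with this step was -0.76 ± 0.22 (unadjusted p = 0.00612, adjusted p = 0.83, edgeR) and did not pass.

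Havcr2 (chromosome 11, 46454931 to 46481254, plus strand) was higher in the CD4+ libraries without PD-1, at 385 and 291 CPM, than in those of STAT3ko (260 and 190) and WT (279 and 222). The log2 fold change was 0.61 ± 0.21 against STAT3ko (95% interval 0.11 to 1.10, adjusted p = 0.108, edgeR) and 0.45 ± 0.21 against WT (adjusted p = 0.209, edgeR), and neither passed. Both passed with the replicate block (adjusted p = 0.007 and 0.0188, edgeR). Replicate 1 was above replicate 2 in each CD4+ group, and the difference from STAT3ko was 0.57 within replicate 1 and 0.61 within replicate 2. The CD8+ libraries of Havcr2 stood at 378 and 377 CPM in WT, 344 and 306 in STAT3ko, and 412 and 321 in STAT3ko PD-1ko, and the last group overlapped both others.

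**Figure D2:**
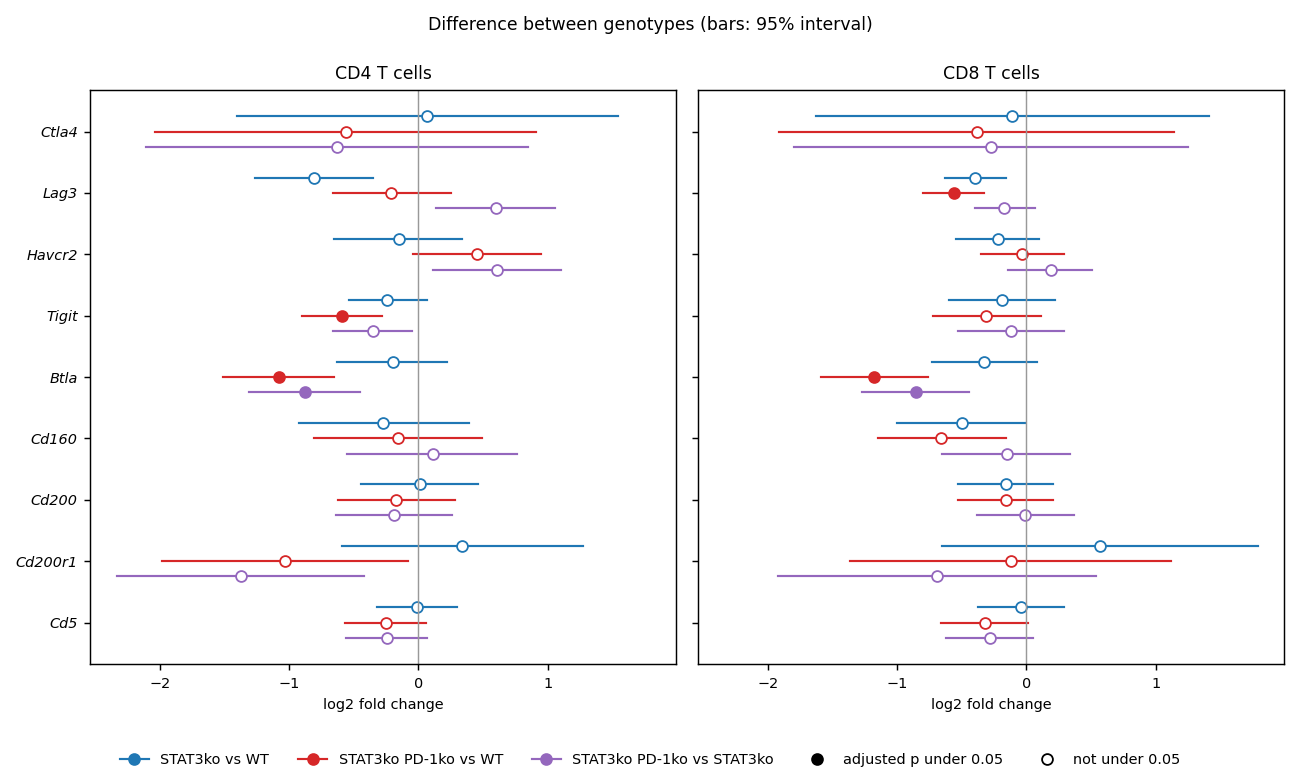
Log2 fold change of each gene (horizontal axis) in 3 comparisons of genotypes, for CD4+ (left) and CD8+ T cells (right), with 95% intervals as bars and filled circles where the adjusted p was under 0.05 without a block. The filled circles are those of Btla in both subsets, Tigit in CD4+, and Lag3 in CD8+ T cells, all to the left of 0.

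Ctla4 (chromosome 1, 60909025 to 60915832, plus strand) split by replicate in WT and STAT3ko cells. In CD4+ T cells it stood at 1301 and 494 CPM in WT, 1518 and 363 in STAT3ko, and 667 and 526 in STAT3ko PD-1ko libraries. The CD8+ libraries had 1086 and 319, 1015 and 290, and 574 and 493 CPM of Ctla4. In the 4 groups of WT and STAT3ko, replicate 1 was 2.63 to 4.18 times replicate 2, and only 0.851% to 2.34% of genes had a larger gap in the same group. In STAT3ko PD-1ko the ratio was 1.27 for CD4+ cells and 1.16 for CD8+ cells. The difference of STAT3ko PD-1ko from WT was -0.96 within replicate 1 and 0.09 within replicate 2 in CD4+ T cells, and -0.92 and 0.63 in CD8+ T cells. No genotype comparison of Ctla4 passed, and the 95% interval for STAT3ko PD-1ko against WT ran from -2.04 to 0.91 in CD4+ and from -1.91 to 1.14 in CD8+ T cells.

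Cd200r1 (chromosome 16, 44765736 to 44794977, plus strand), the lowest of the 9 genes per kilobase in WT cells of both subsets, also split by replicate. In CD4+ T cells it stood at 22.8 and 15.3 CPM in WT, 26.0 and 22.1 in STAT3ko, and 13.2 and 5.16 in STAT3ko PD-1ko libraries. Both libraries without PD-1 were below the rest, by 1.37 ± 0.41 on the log2 scale against STAT3ko (95% interval of the fold change -2.33 to -0.42, adjusted p = 0.0724, edgeR), which did not pass. It passed with DESeq2 (adjusted p = 0.00802) and with all genes of at least 1 count (adjusted p = 0.0213, edgeR). Cd200r1 fitted with the replicate block was lower in STAT3ko PD-1ko than in both STAT3ko and WT (log2 -1.48 and -1.10, adjusted p = 0.007 and 0.018, edgeR). Among CD8+ libraries Cd200r1 stood at 4.05 and 5.67, 5.96 and 8.47, and 6.94 and 2.00 CPM. Replicate 1 was 2.54 times replicate 2 in CD4+ and 3.37 times in CD8+ T cells of STAT3ko PD-1ko. The difference of STAT3ko PD-1ko from WT was 0.78 within replicate 1 and -1.50 within replicate 2 of CD8+ T cells. Cd200, its ligand, was at 21.999 to 31.6 CPM in CD4+ and 12.3 to 14.9 CPM in CD8+ libraries, with log2 differences between genotypes of -0.19 to 0.01.

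**Figure D3:**
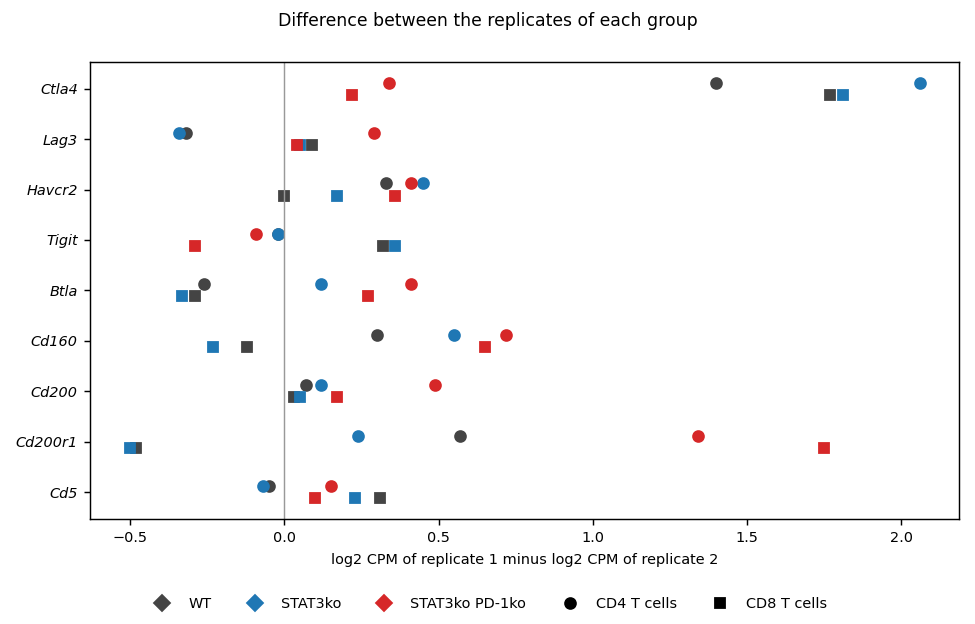
Difference in log2 CPM between replicates 1 and 2 (horizontal axis) of each group for each gene, with circles for CD4+ and squares for CD8+ T cells and colours for genotype. Ctla4 in WT and STAT3ko lies between 1.40 and 2.06 and Cd200r1 in STAT3ko PD-1ko at 1.34 and 1.75, to the right of the other points.

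Cd5 (chromosome 19, 10718143 to 10738974, minus strand) passed in no genotype comparison. It stood at 374 and 386 CPM in WT, 367 and 385 in STAT3ko, and 330 and 298 in STAT3ko PD-1ko CD4+ libraries. In CD8+ libraries it stood at 201 and 162, 191 and 163, and 149 and 139 CPM. Against WT the log2 fold change in STAT3ko PD-1ko was -0.25 ± 0.13 (95% interval -0.57 to 0.06) in CD4+ and -0.32 ± 0.14 (-0.66 to 0.01) in CD8+ T cells.

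Counted over the 9 genes, 0 passed in STAT3ko against WT CD4+ T cells, beside 0.334% of all genes tested. At an unadjusted p under 0.05 there was 1 of 9 (10.5% of all genes, edgeR), and DESeq2 called 1 of 9, beside 271 of the 11959 genes tested. In CD8+ T cells it was 0 of 9 beside 0.0583%, with 2 of 9 at an unadjusted p under 0.05 (11% of all genes, edgeR). DESeq2 called 1 of 9 there, beside 218 of the 11071 genes it tested. In STAT3ko PD-1ko against WT, 2 of 9 fell and none rose in CD4+ T cells, beside 12.9% of all genes called and 5.65% called lower. Likewise 2 of 9 fell in CD8+ T cells, beside 17.2% called and 8.21% lower. Against STAT3ko, 1 of 9 fell in CD4+ (11.1% of all genes called, 5.03% lower) and 1 of 9 in CD8+ T cells (16.8% called, 8.05% lower). With the replicate block the counts in CD4+ T cells were 4 of 9 (1 higher, 3 lower) against WT and 5 of 9 (2 higher, 3 lower) against STAT3ko, beside 26% of all genes in each. For CD8+ T cells they stayed at 2 and 1, beside 24.7% and 24.4%, and in STAT3ko against WT at 0 in each subset (2.53% and 0.075% of all genes, edgeR). Libraries without overlap were common among all genes. In STAT3ko PD-1ko against WT it was 5 of 9 in CD4+ (59.2% of all genes) and 6 of 9, all lower, in CD8+ T cells (59.7% of all genes, 29.8% lower). The median log2 fold change of the 9 genes was -0.25 for CD4+ and -0.32 for CD8+ cells in this comparison, beside -0.01 and 0 over all genes.

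Several of these receptors differed between the subsets. Cd160 was higher in CD8+ than in CD4+ T cells in each genotype, and Btla, Cd5, and Cd200 were lower. In WT cells 6 of 9 passed, beside 10.5% of all genes. Cd160 was 5.16-fold higher (log2 2.37 ± 0.29, adjusted p = 0.000714, edgeR) and Lag3 1.51-fold higher in CD8+ T cells (log2 0.59 ± 0.16, adjusted p = 0.0378, edgeR). Cd5 was 2.10-fold lower (log2 -1.07 ± 0.14, adjusted p = 0.000894), Cd200 and Btla were each 2.05-fold lower, and Cd200r1 was 3.91-fold lower (adjusted p = 0.0466, edgeR). In STAT3ko cells 5 of 9 passed (9.62% of all genes). Lag3 was 2.01-fold and Cd160 4.39-fold higher in CD8+ T cells, and Btla, Cd200, and Cd5 were 2.13- to 2.29-fold lower. In STAT3ko PD-1ko cells 4 of 9 passed (4.14% of all genes), with Cd160 3.68-fold higher and Btla, Cd200, and Cd5 2.02- to 2.18-fold lower. Lag3 was then 1.19-fold higher in CD8+ T cells, which did not pass (adjusted p = 0.555, edgeR).

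Because CD4+ and CD8+ cells of a genotype were taken from the same livers, these subset comparisons were also fitted with the pool as a block. All 9 genes then passed in WT and in STAT3ko, and 5 in STAT3ko PD-1ko, beside 24.3%, 24.9%, and 14.4% of all genes in the same fit. The added calls in WT and STAT3ko included Havcr2, higher in CD8+ T cells (log2 0.60 and 0.54, adjusted p = 0.00402 and 0.00672, edgeR), and Ctla4, lower by 0.44 and 0.45 (adjusted p = 0.0194 and 0.0176, edgeR). Tigit was lower in CD8+ T cells by 0.43 and 0.38 (adjusted p = 0.0308 and 0.0496, edgeR) in that fit, and Cd200r1 passed in all 3 genotypes. Without the block, fewer of all genes passed in WT whichever WT library was left out. Fewer of the 9 genes passed in WT when the first WT CD8+ library was left out. In WT the call on Lag3 held in 5 and that on Cd200r1 in 4 of 12 fits that left out 1 library. In STAT3ko PD-1ko, too, fewer of all genes passed whichever of its own libraries was left out. Fewer of the 9 passed there without its first CD4+ or its second CD8+ library. Cd160 and Cd5 passed in every fit that left out 1 library, in all 3 genotypes.

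**Figure D4:**
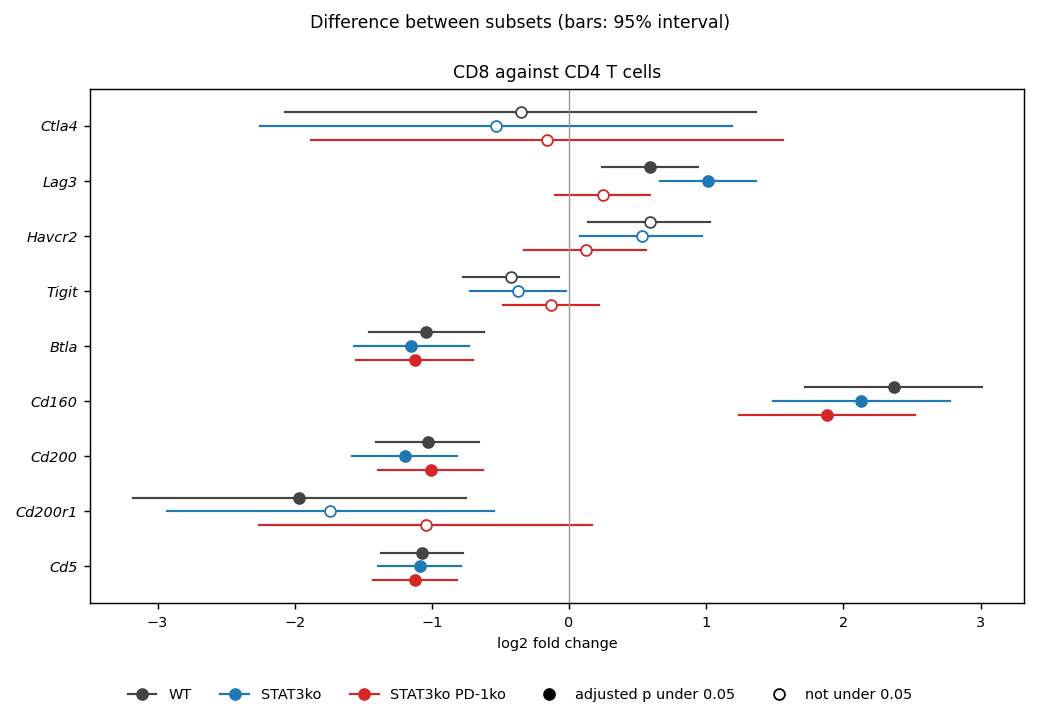
Log2 fold change between CD8+ and CD4+ T cells (horizontal axis, positive where CD8+ is higher) of each gene in the 3 genotypes, with 95% intervals as bars and filled circles where the adjusted p was under 0.05 without a block for the pool. Cd160 lies at 1.88 to 2.37, and Btla, Cd200, and Cd5 lie between -1.20 and -1.01.

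The 12 libraries also allowed a test of whether a genotype effect was unequal in the 2 subsets, as an interaction. None of the 9 genes passed in any of the 3 interactions (edgeR), and of all genes 0%, 0.00811%, and 0% did. At an unadjusted p under 0.05 there was 1 gene of the 9, Lag3, in the interaction with STAT3ko PD-1ko against STAT3ko (3.59% of all genes). For Btla the interaction with STAT3ko PD-1ko against WT was -0.09 ± 0.26 (95% interval -0.68 to 0.50), and for Tigit it was 0.30 ± 0.22 (-0.20 to 0.79). The fall of Tigit in CD4+ and of Lag3 in CD8+ T cells was therefore not shown to differ between subsets.

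Ligands and partners of these receptors were read from lists of related genes. The libraries held sorted donor T cells, so these are transcripts of that sort, and ligands on other cells of the liver were not measured. Of 11 ligands tested, 2 rose and none fell in STAT3ko PD-1ko against WT CD4+ T cells (median log2 fold change 0.05, beside -0.01 over all genes, of which 12.9% were called). Cd80, a ligand of CTLA-4, rose from 11.8 and 19.5 CPM in WT to 35.7 and 30.8 (log2 1.11 ± 0.25, adjusted p = 0.0294, edgeR), with 25.7 and 25.2 CPM in STAT3ko. H2-Ab1, a chain of the MHC class II ligand of LAG-3, rose from 1.41 and 2.46 to 4.67 and 5.60 CPM (adjusted p = 0.044, edgeR), whereas the partner chain H2-Aa was at 0.591 and 1.31 in WT and 0.346 and 0.397 CPM in STAT3ko PD-1ko. Of the same 11, 1 rose and 3 fell against WT in CD8+ T cells (median -0.40, beside 0 over all genes, of which 17.2% were called and 8.21% were lower). Tnfrsf14, which encodes the ligand of BTLA and CD160, fell from 12.8 and 16.6 to 8.18 and 7.76 CPM (log2 -0.87 ± 0.21, adjusted p = 0.0325, edgeR). Cd86 fell by 1.12 ± 0.15 (adjusted p = 0.00651, edgeR) and Lgals3 by 0.54 ± 0.11 on the log2 scale. Nectin2, a ligand of TIGIT, rose from 3 and 4 counts to 17 and 18 counts, a low level. Against STAT3ko the count was 0 of 11 in CD4+ (11.1% of all genes, and 3 of 11 with the replicate block beside 26%, edgeR), and 1 higher and 4 lower in CD8+ T cells (16.8% of all genes called, 8.05% lower), among the latter Lgals9, which encodes galectin-9 (log2 -0.50 ± 0.13, adjusted p = 0.0371, edgeR).

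Of 4 receptors and ligands that compete for these partners, Cd226 fell in CD8+ T cells, by 0.82 ± 0.19 on the log2 scale against WT (adjusted p = 0.0288, edgeR) and by 0.73 ± 0.19 against STAT3ko (adjusted p = 0.0423, edgeR). CD226 is the activating receptor that shares ligands with TIGIT. Cd96, a receptor of the same family, fell by 0.48 ± 0.11 against WT. The median of the 4 genes against WT was -0.80 in CD8+ and -0.61 in CD4+ cells. Of the 4, 2 passed in CD8+ T cells against WT (17.2% of all genes) and 1 against STAT3ko (16.8%). None of the 4 passed in CD4+ T cells, where the unadjusted p of Cd226 against STAT3ko was 0.0131 (log2 -0.94 ± 0.29). With the replicate block 2 fell against WT and 3 against STAT3ko in CD4+ T cells, beside 26% of all genes, among them Cd226 against STAT3ko (adjusted p = 0.00267, edgeR). In that fit Cd226 was higher in STAT3ko than in WT CD4+ T cells (log2 0.65, adjusted p = 0.0358, edgeR), beside 2.53% of all genes called. In CD8+ T cells the block added Cd28, lower against WT (log2 -0.72, adjusted p = 0.0118) and STAT3ko (log2 -0.83, adjusted p = 0.00886, edgeR), beside 24.7% and 24.4% of all genes. Of 14 phosphatases and adaptors, 1 fell (Arrb2) in CD4+ T cells against WT, and 1 rose and 3 fell in CD8+ T cells (medians -0.31 and -0.25), beside 12.9% and 17.2% of all genes called. Against STAT3ko, 2 fell in each subset, beside 11.1% and 16.8%. With the replicate block 8 (2 higher, 6 lower) and 7 (1 higher, 6 lower) passed in CD4+ T cells against WT and STAT3ko, beside 26% of all genes, and 5 in CD8+ T cells in each comparison (24.7% and 24.4%). Inpp5d, which encodes the lipid phosphatase SHIP-1, fell against STAT3ko in both subsets (log2 -0.61 ± 0.16 in CD4+ and -0.61 ± 0.12 in CD8+, adjusted p = 0.0488 and 0.0182, edgeR). Ptpn6 and Ptpn11, which encode SHP-1 and SHP-2, passed in no genotype comparison without a block. With it, Ptpn6 fell by 0.45 against STAT3ko and Ptpn11 rose by 0.35 against WT in CD4+ T cells (adjusted p = 0.0377 and 0.042, edgeR), and Ptpn11 rose by 0.33 in CD8+ T cells with an adjusted p just under 0.05. Fyn, a kinase of T cell receptor signalling, fell by 0.81 ± 0.11 in CD8+ T cells against WT (adjusted p = 0.00666, edgeR). Cblb, an E3 ubiquitin ligase, was the gene of this list that rose without a block (log2 0.40 ± 0.11 in CD8+ against WT, adjusted p = 0.0492, edgeR). Of 7 trafficking and shedding genes, 0 passed in CD8+ T cells (edgeR) and 1 in CD4+ T cells (medians -0.02 and 0.05 against WT), beside 17.2% and 12.9% of all genes. The one in CD4+ T cells, Trat1, whose product TRIM moves CTLA-4 to the surface, fell in CD4+ T cells by 1.31 ± 0.26 against WT (adjusted p = 0.0203, edgeR) and by 1.77 ± 0.26 against STAT3ko (adjusted p = 0.0118, edgeR). Its log2 fold change against WT in CD8+ T cells was -1.99 with the replicate block (adjusted p = 0.0499, and 0.0568 without the block, edgeR).

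Of inhibitory receptors outside the 9 genes, 8 were also tested in CD4+ and 9 in CD8+ T cells. Of 8 tested in CD4+ T cells, 1 rose and 3 fell in STAT3ko PD-1ko against WT (median log2 fold change -0.77), beside 12.9% of all genes called and 5.65% called lower. Vsir, which encodes VISTA, fell from 386 and 371 CPM to 182 and 189 (log2 -1.01 ± 0.14, adjusted p = 0.00696, edgeR). Lair1, a collagen receptor, fell from 66.8 and 50.5 to 27.3 and 21.6 CPM (log2 -1.24 ± 0.21, adjusted p = 0.0118, edgeR). Lilrb4a fell by 1.83 ± 0.32 on the log2 scale (adjusted p = 0.0139, edgeR), and Cd244a, which encodes 2B4, rose by 1.24 ± 0.31 (adjusted p = 0.0387, edgeR) from 46 and 33 counts to 97 and 99. Of 9 tested in CD8+ T cells, none rose and 5 fell (median -0.79, beside 17.2% of all genes called and 8.21% called lower), namely Lair1 (log2 -1.33 ± 0.13), Lilrb4a (-1.65 ± 0.23), Klrc1 (-1.55 ± 0.21), which encodes NKG2A, Cd300a, and Vsir (-0.79 ± 0.11), with adjusted p of 0.00333 to 0.0135 (edgeR). Vsir was added to the 4 largest of this list after its values were seen. Cd300a had 30 and 40 counts in WT, 3 and 0 in STAT3ko, and 2 and 1 in STAT3ko PD-1ko CD8+ libraries. Against STAT3ko, 1 rose and 2 fell in CD4+ (11.1% of all genes called, 5.03% lower) and 5 fell in CD8+ T cells (16.8% called, 8.05% lower). With the replicate block the counts in CD4+ T cells were 6 of 8 against WT (1 higher, 5 lower, with Cd101 and Klrc1 gained at adjusted p = 0.0238 and 0.00733, edgeR) and 7 of 8 against STAT3ko (1 higher, 6 lower), beside 26% of all genes in each. No such gene passed in STAT3ko against WT in either subset (0 of 8 and 0 of 9, edgeR), and 2 did in CD4+ T cells with the block, Klrg1, higher, and Lilrb4a, lower (adjusted p = 0.0186 and 0.0418, edgeR). Whether more of these than of the 9 receptors moved was not tested.

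**Figure D5:**
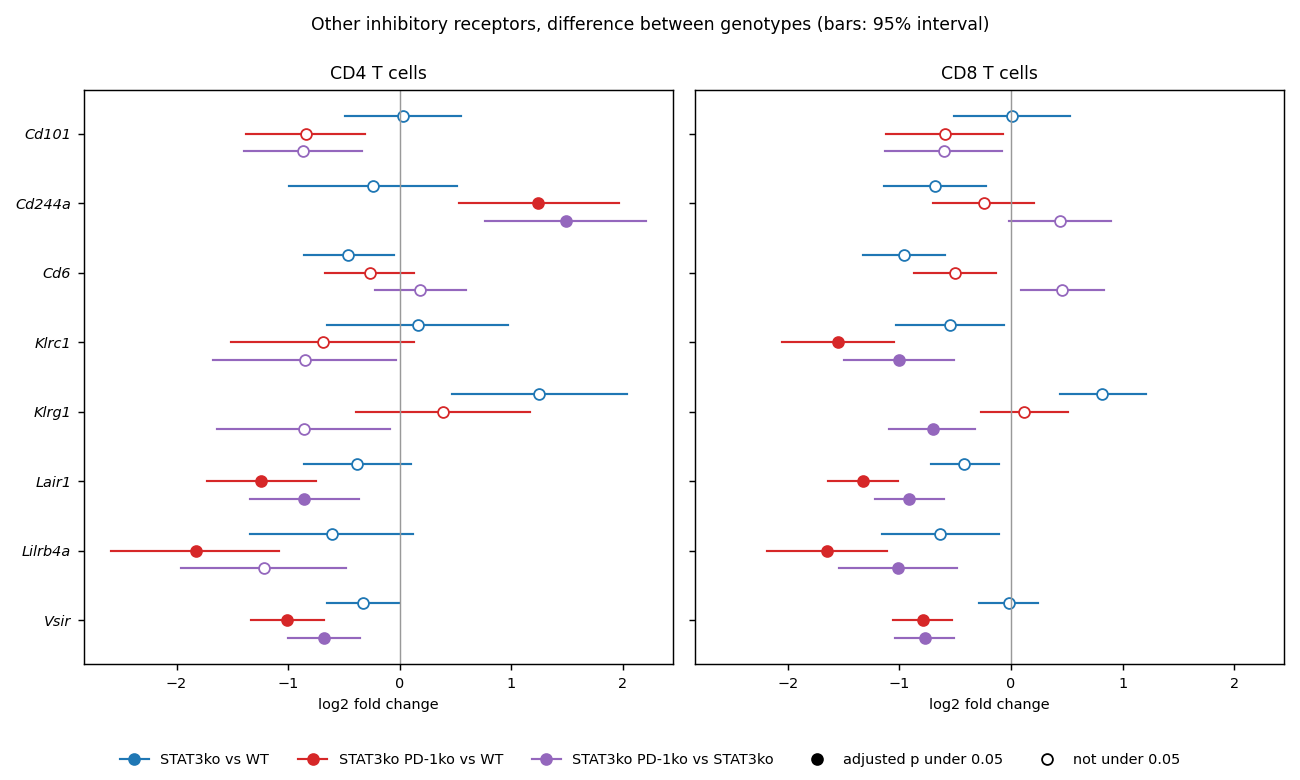
Log2 fold change (horizontal axis) of the 8 further inhibitory receptor genes tested in both subsets, for 3 comparisons of genotypes in CD4+ (left) and CD8+ T cells (right), with 95% intervals as bars and filled circles where the adjusted p was under 0.05 without a block. Lair1 and Vsir fell in STAT3ko PD-1ko against both other genotypes in each subset.

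The genes whose levels followed Btla, Tigit, and Lag3 most closely were found by Pearson's r over the 12 libraries, after centring each gene on its mean in each subset, among 11690 genes. The libraries share genotype, so that these values are a description. For Btla they included Ndnf (r = 0.981) and Ccr2 (0.978). Ccr2 encodes a chemokine receptor, and against WT it fell by 3.72 ± 0.37 on the log2 scale in STAT3ko PD-1ko CD4+ T cells (adjusted p = 0.00321, edgeR). In CD8+ T cells it fell by 3.80 ± 0.44 (adjusted p = 0.00483, edgeR). For Tigit they were Rela (0.952), Pitpna (0.943), and Ulk1 (0.941), and for Lag3 they were Arhgef25 (0.896), Sema4d (0.886), and Snx9 (0.88).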

How the data were processed

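The RNA-Seq libraries of liver donor T cells were analysed from the deposited gene counts, which the authors made by alignment to mm10 with STAR and counting on RefSeq genes with HTSeq-count. The deposited RPKM values, which the authors scaled by exon length and library size, served for 1 alternative. The labels also hold a culture protocol for another cell type and another library kit than the study's methods, and neither was used. Totals of 21676125 to 24551477 counts per library allow small counting errors, so the spread between pools limits the precision.

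The filterByExpr function, at a count of 10 and a total of 15, left 11959 in CD4+, 12002 in CD8+, and 12334 in all libraries. Counts were scaled by TMM and tested with the quasi-likelihood test of edgeR (version 4.0.16) in R (version 4.3.3), with the 6 libraries of a subset fitted together (3 residual degrees of freedom), and with 12 libraries (6 degrees) between subsets. The log2 fold changes are given with their standard error (SE), and p-values were adjusted over all genes tested by Benjamini-Hochberg, with 0.05 as threshold. An exact permutation test of 2 libraries against 2 cannot go below p = 0.333 (2-sided) and is not given. Levels are CPM per library, and CPM per kilobase used the exon length of the table. The alternatives were DESeq2 (version 1.42.0), other filters, limma (version 3.58.1) on log2(RPKM + 1) and log2(RPKM + 0.1), only the 4 libraries compared, a block for replicate number or pool, and leaving out each library. The edgeR fits without a block and with the replicate block, DESeq2, and limma were tried on simulated data. The fit with the pool as a block and the interactions were not. Figures were drawn with matplotlib (version 3.10.9) in Python (version 3.11.15).

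All 9 genes are described. From the related lists (11 of 13 ligands and partners tested, 4 of 4 competitors, 14 of 14 phosphatases and adaptors, 7 of 7 trafficking genes, 8 or 9 of 10 other receptors), some genes past the threshold are named. At most 4 were named for each list and comparison, apart from Vsir, which was added to the other receptors in CD8+ T cells. Pvrig was not matched. Some marker and correlated genes are not reported here. The genes and lists were chosen with earlier results of these data known.

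The study's methods take CD4+ and CD8+ cells from the same livers. Deviations of replicate 1 from the group mean correlated across genes at r = 0.59 (WT), 0.58 (STAT3ko), and 0.65 (STAT3ko PD-1ko) between the subsets, so same-numbered libraries of a genotype were taken as 1 pool and the pairing was used as a block. Across genotypes, the library numbers in the labels run in 1 series for each replicate number, and the study's methods name 2 batches for the TCR sequencing. The methods for RNA-Seq do not say so, and the replicate number was therefore used as a block beside the fit without it.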

Additional observations from a re-analysis of the deposited data

How the results depend on the processing

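With 2 pools per group, single libraries decided many calls. The count of the 9 genes called, as one library was left out, ran from 0 to 2 for STAT3ko PD-1ko against WT and from 0 to 1 for STAT3ko PD-1ko against STAT3ko, in each subset. For CD8 against CD4 it ran from 3 to 6 in WT and from 2 to 4 in STAT3ko PD-1ko. A group left with 1 library was assumed to vary like the others. Without the second STAT3ko PD-1ko CD4 library, 62 of all genes passed against WT and 0 against STAT3ko, in place of 1538 and 1324. DESeq2 called 1 gene (Lag3, lower) for STAT3ko against WT in each subset, where edgeR called 0. Over all genes it called 271 in CD4 and 218 in CD8, in place of 40 and 7. For STAT3ko PD-1ko against STAT3ko in CD4, DESeq2 called 3 of the 9 in place of 1, and 2100 of all genes in place of 1324. With all genes of at least 1 count, this comparison had 2 of the 9 and 1645 of 16760 genes called. The other 65 counts from settings that kept all libraries were within 1.5 times of the main ones. Of the counts for the related lists, 27 moved by more than that and 93 did not.

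Replicate numbers are shared by the genotypes and may mark a batch. Deviations of replicate 1 correlated at r = 0.63, 0.30, and 0.20 between the CD4 groups and at 0.65, 0.16, and 0.06 between the CD8 groups. With the replicate block, 4 of the 9 genes passed for STAT3ko PD-1ko against WT and 5 against STAT3ko in CD4, and no call on these genes or the related lists was lost between genotypes. With the pool of recipients as a block, 9 passed for CD8 against CD4 in STAT3ko, beside 24.9% of all genes.

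Signs changed only for fold changes that did not pass without a block. Among them, Ctla4 for CD8 against CD4 in WT and STAT3ko passed with the pool as a block. Cd200 was 0, 0.01, and 0.01 for STAT3ko PD-1ko against STAT3ko in CD8 (at least 10 counts in every library, then limma with either pseudocount) and 0, 0, and -0.01 for STAT3ko against WT in CD4 (limma, then the 4 libraries compared). Ctla4 was -0.12 with either limma fit and -0.05 with the replicate block for STAT3ko against WT in CD4, and 0.05 with the block for STAT3ko PD-1ko against STAT3ko in CD8. The log2 fold change with one library left out took both signs for the following. For Btla it ran from -0.15 to 0.25 for the interaction with STAT3ko PD-1ko against STAT3ko, -0.27 to 0.13 for the interaction with STAT3ko PD-1ko against WT, and -0.31 to 0.05 for the interaction with STAT3ko against WT. For Cd160 it ran from -0.29 to 0.42 for STAT3ko PD-1ko against STAT3ko, CD4, -0.52 to 0.13 for STAT3ko PD-1ko against STAT3ko, CD8, and -0.55 to 0.15 for STAT3ko PD-1ko against WT, CD4. For Cd200 it ran from -0.44 to 0.03 for STAT3ko PD-1ko against STAT3ko, CD4, -0.11 to 0.07 for STAT3ko PD-1ko against STAT3ko, CD8, -0.43 to 0.04 for STAT3ko PD-1ko against WT, CD4, and -0.03 to 0.06 for STAT3ko against WT, CD4. For Cd200r1 it ran from -1.28 to 0.51 for STAT3ko PD-1ko against WT, CD8. For Cd5 it ran from -0.06 to 0.04 for STAT3ko against WT, CD4, and -0.18 to 0.12 for STAT3ko against WT, CD8. For Ctla4 it ran from -1.69 to 0.82 for CD8 against CD4, STAT3ko, -0.31 to 0.01 for CD8 against CD4, STAT3ko PD-1ko, -1.49 to 0.51 for CD8 against CD4, WT, -1.32 to 0.72 for STAT3ko PD-1ko against STAT3ko, CD4, -0.91 to 0.88 for STAT3ko PD-1ko against STAT3ko, CD8, -1.10 to 0.28 for STAT3ko PD-1ko against WT, CD4, -1.03 to 0.74 for STAT3ko PD-1ko against WT, CD8, -1.29 to 0.92 for STAT3ko against WT, CD4, and -1.27 to 1.02 for STAT3ko against WT, CD8. For Havcr2 it ran from -0.06 to 0.33 for CD8 against CD4, STAT3ko PD-1ko, -0.02 to 0.34 for STAT3ko PD-1ko against STAT3ko, CD8, -0.23 to 0.13 for STAT3ko PD-1ko against WT, CD8, and -0.38 to 0.05 for STAT3ko against WT, CD4. For Tigit it ran from -0.29 to 0.02 for CD8 against CD4, STAT3ko PD-1ko, -0.28 to 0.06 for STAT3ko PD-1ko against STAT3ko, CD8, and -0.13 to 0.22 for the interaction with STAT3ko against WT.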
